A study of Mus musculus with 4 samples.

Results

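The genes described here are 9 transcription factors that are known to shape type 2 and IL-9–secreting T cells: *Gata3*, *Irf4*, *Spi1* (which encodes PU.1), *Maf*, *Rora*, *Runx1*, *Etv5*, *Pparg* and *Nfil3*. They were picked by symbol, with earlier results of these data known, and all 9 are among the 15981 genes that appear in at least 1 of the tables used. Their transcripts were followed in tumor-infiltrating Tc1 and Tc9 cells. These are CD8+ T cells polarized in culture to secrete IFN-γ (Tc1) or IL-9 (Tc9). All libraries came from Thy1.1+ Pmel-1 T cells on the C57BL/6 background, which carry a transgenic receptor for a melanoma antigen, cultured for 5 days and injected into Thy1.2+ B6 mice with s.c. B16 melanomas of 10 days. According to the methods, Tc9 cultures received IL-4, TGF-β and an antibody against IFN-γ, Tc1 cultures received recombinant human IL-2, and both were then kept in medium with IL-2. All recipient mice also received cyclophosphamide, dendritic cells and recombinant human IL-2. Cells were sorted from the tumors 14 days after transfer, and RNA of several mice was pooled into 2 samples per group, so each group has 2 libraries and the mice behind each library are not known.

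The depth lay between 30822953 and 31927162 counts per library. The tables list genes in the character order of a numeric identifier and stop at different points: the Tc1 tables hold 1535 (replicate 1) and 7407 genes (replicate 2) and those of Tc9 hold 3151 and 15442. Of the members, *Runx1* and *Etv5* were therefore covered in all 4 libraries. *Gata3*, *Irf4* and *Maf* were covered in 3 libraries (Tc1 replicate 2 and both Tc9 libraries). *Nfil3*, *Pparg*, *Rora* and *Spi1* were covered in the replicate 2 libraries only, where 1 library per group allows no test. A gene within the range of a table but not listed was taken as 0 counts. Nothing says that the libraries came from separate animals, so each p-value measures the spread between these libraries only.

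In T helper cells, IL-4 acts through STAT6 to raise GATA3, which opens the cytokine genes *Il4*, *Il5* and *Il13*. When TGF-β is added to IL-4, PU.1, IRF4 and BATF join this program and drive *Il9*, and CD8+ T cells given the same signals become Tc9 cells. MAF is known for its action on *Il4* and *Il10*, PPARγ for its part in Th2 and Th9 cells and in lipid metabolism, and RORα for innate lymphoid cells of type 2. RUNX1, ETV5 and NFIL3 are broadly used T cell factors that also act on cytokine genes.

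Of the 9 factors, 5 passed the test across genes, of which 4 rose and 1 fell from Tc1 to Tc9 cells. *Maf*, *Gata3*, *Irf4* and *Runx1* were higher, at 23.6, 7.12, 2.4 and 2.55 times the Tc1 level. *Etv5* was lower, at 0.649 of the Tc1 level, a call lost without the filter on low counts (adjusted p = 0.0697 by edgeR) or without either Tc1 library. Without a test, *Pparg* and *Nfil3* stood at 4.88 and 2.51 times the Tc1 level in the replicate 2 libraries, *Rora* at 1.14 times, and *Spi1*, the gene of PU.1, was under the limit of detection in both groups. In pooled cells, more cells with a transcript and more transcript per cell cannot be told apart. Over the 3 libraries, all 3 members tested were called higher, against 7.00% called higher and 3.06% called lower (10.1% in all) of the 2616 genes tested. Over all 4 libraries, 1 of the 2 members tested was called higher and 1 lower, against 18.4% and 17.1% of the 1284 genes tested. The shares over 3 libraries moved with the scaling and the filter, and those over 4 with the filter and the libraries used. The last section gives these shifts. Without the filter on low counts, edgeR called no gene over the 3 libraries, with 597 genes at an unadjusted p under 0.05, and *Gata3*, *Irf4* and *Maf* then had an adjusted p of 0.202 at log2 fold changes of 2.83, 1.26 and 4.56.

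**Figure D1:**
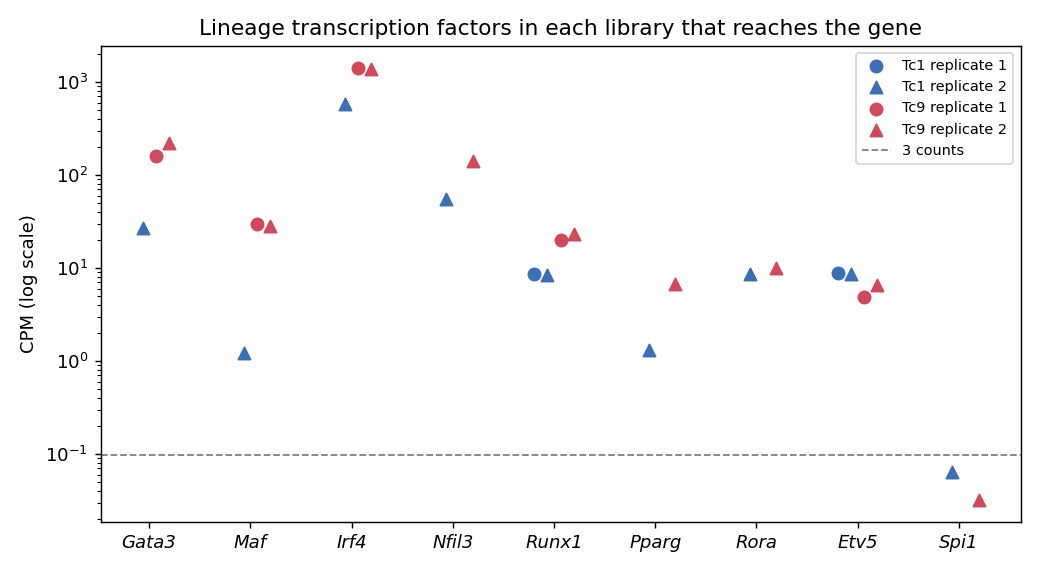
Level of each member in counts scaled by library size (CPM, vertical log axis) in each library that covers it, with 1 point per library and Tc1 and Tc9 libraries in separate colors. Both Tc9 libraries lie above the Tc1 library or libraries for *Gata3*, *Irf4*, *Maf* and *Runx1* and below them for *Etv5*, and *Spi1* lies under the limit of 3 counts.

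The starts of *Gata3*, *Irf4* and *Runx1* are shown because these genes passed the test, are higher in Tc9 cells and have an entry in the RefSeq promoter table (build GRCm38.p6). Of the 9 members, 7 have entries, 11 in all, and *Maf* and *Spi1* have none in the table. Each line is read 5′ to 3′ toward the gene, and capitals mark CpG dinucleotides, the sites of DNA methylation in mammalian promoters. Lines stop where an annotated exon of the gene begins, which leaves 243 bases for *Irf4* and 175 for the distal start of *Runx1*. The *Gata3* stretch is chr2:9878601-9878850 on the minus strand and lies inside the annotated span of the gene but outside its exons, where it overlaps the antisense gene Gm13256. The *Irf4* stretch is chr13:30748983-30749225 on the plus strand. *Runx1* is known to use a distal and a proximal promoter, given here as chr16:92826150-92826324 and chr16:92697330-92697579, both on the minus strand.
Gata3: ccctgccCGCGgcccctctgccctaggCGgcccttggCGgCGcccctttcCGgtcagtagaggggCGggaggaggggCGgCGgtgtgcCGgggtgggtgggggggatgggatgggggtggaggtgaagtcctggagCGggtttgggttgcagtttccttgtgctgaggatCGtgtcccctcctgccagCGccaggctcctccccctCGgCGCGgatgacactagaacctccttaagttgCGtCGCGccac
Irf4: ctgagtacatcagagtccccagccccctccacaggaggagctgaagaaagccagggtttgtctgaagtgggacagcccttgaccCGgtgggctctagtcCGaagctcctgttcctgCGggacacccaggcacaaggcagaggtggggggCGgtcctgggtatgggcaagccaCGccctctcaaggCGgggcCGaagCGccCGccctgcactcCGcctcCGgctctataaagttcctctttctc
Runx1 distal: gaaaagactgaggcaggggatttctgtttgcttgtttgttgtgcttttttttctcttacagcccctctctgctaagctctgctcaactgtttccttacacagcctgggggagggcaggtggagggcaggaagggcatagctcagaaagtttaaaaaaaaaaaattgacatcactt
Runx1 proximal: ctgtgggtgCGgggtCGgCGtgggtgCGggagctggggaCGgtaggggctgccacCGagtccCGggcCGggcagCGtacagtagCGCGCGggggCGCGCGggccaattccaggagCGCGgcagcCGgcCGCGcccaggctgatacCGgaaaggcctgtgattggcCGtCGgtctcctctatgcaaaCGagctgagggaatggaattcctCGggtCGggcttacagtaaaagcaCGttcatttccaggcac
In the 250 bases before the start, *Gata3* holds 19 CpG and *Irf4* holds 11, beside a median of 6 over all 32851 promoter entries, and 19.7% and 35.6% of the entries hold as many. The *Runx1* promoters differ from each other, with 2 CpG in the 250 bases before the distal start, both beyond the 175 bases shown, and 27 before the proximal one, and 81.2% and 8.56% of the entries hold as many.

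The same windows of 250 bases were searched on both strands for letters bound by the factors of this circuit. The letters were AGATAA or TGATAA for GATA factors (in 16.6% of all entries), TTCNNNGAA for STAT factors (7.02%), TTC and GAA set 4 bases apart for STAT6 (5.85%), TGTGGT for RUNX factors (14%), GAAA repeated after 2 bases for IRF factors (2.98%), TGANTCA for AP-1 (6.75%), GGAAGT for ETS factors (19.7%), TTANNTAA for NFIL3 (5.43%) and CANNTG for the E-box (66.2%). Among the 11 member entries, 1 start of *Etv5* holds the ETS letters and 1 start of *Pparg* holds the NFIL3 letters. The E-box letters were found before 5 of the 11 starts, those of *Nfil3*, *Etv5*, *Runx1* and *Pparg*, with 2 starts of *Pparg* among them. The *Gata3* and *Irf4* windows hold none of these letters.

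*Gata3*, the central factor of type 2 differentiation, lies on chr2:9857078-9890034 (minus strand, GRCm38). The covered Tc1 library held 829 *Gata3* counts, and Tc9 replicates 1 and 2 held 5037 and 6839. In CPM these are 26.6, 161 and 218, with a Tc9 mean of 189 ± 40.7 (SD, n = 2). Both Tc9 libraries were far above the Tc1 library, and the difference between the Tc9 libraries was small beside the distance to Tc1. Groups without overlap are common over 3 libraries, with 82.0% of the 2616 genes. The log2 fold change was 2.83 (SE 0.31), with an adjusted p of 0.00599 in the quasi-likelihood test of edgeR. The Tc1 group had 1 library in this test, which was assumed to vary like the Tc9 libraries. By size of change *Gata3* stood 74th from the top of 2616 genes. Genes on the opposite strand overlap the annotated span of *Gata3* and of *Maf*, *Rora*, *Runx1* and *Pparg*. On the same strand, 9230102O04Rik overlaps 6500 bases of the *Gata3* span. None of these genes is listed in a table, which does not show that they are silent. Whether the counting used the strand is not given in the sources used here, and reads from these genes may not be told apart from those of the member.

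*Irf4*, a factor induced by the T cell receptor that pairs with BATF on cytokine genes, was the most abundant member per length in every library that covered it. Its counts were 18150 in the covered Tc1 library, 44730 in Tc9 replicate 1 and 42747 in Tc9 replicate 2. The corresponding levels were 582 CPM and 1395 ± 44 CPM (SD, n = 2). The Tc9 libraries nearly coincided and did not reach down to the Tc1 level, and 82.0% of the 2616 genes had groups without overlap. The log2 fold change was 1.26 (SE 0.20, adjusted p = 0.0174 by edgeR), and 90.7% of the genes tested over 3 libraries had a lower value. The gene lies on chr13:30749226-30766976 (plus strand).

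*Maf* encodes c-MAF, which acts on *Il4* and *Il10*, and showed the largest change of the members. The Tc1 library held 38 *Maf* counts, against 936 and 874 in Tc9 replicates 1 and 2. The level went from 1.22 CPM to 28.9 ± 1.38 CPM (SD, n = 2). *Maf* was thus scarce in the Tc1 library and moderate in both Tc9 libraries, with no overlap, as held for 82.0% of the 2616 genes. The log2 fold change was 4.56 (SE 0.29, adjusted p = 0.00196 by edgeR), the 28th largest increase among 2616 genes. Between the replicate 2 libraries alone the log2 ratio was 4.44, with a 95% Wilson interval of 4.05 to 4.98 that covers counting error only. The gene lies on chr8:115682942-115707794 (minus strand).

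*Runx1* encodes a DNA-binding partner of CBFβ that is active in thymocytes and in naive and activated T cells, and was covered in every library. Tc1 replicates 1 and 2 held 272 and 260 *Runx1* counts, whereas Tc9 replicates 1 and 2 held 631 and 721. The means were 8.45 ± 0.157 CPM in Tc1 and 21.6 ± 2.04 CPM in Tc9 (SD, n = 2 each). The groups did not overlap, as held for 70.2% of the 1284 genes tested, and the Tc1 libraries were nearly equal. The log2 fold change was 1.35 (SE 0.14, adjusted p = 1.92e-05 by edgeR), the 62nd largest increase among 1284 genes. The length that the authors' program assigned to *Runx1*, an average over transcripts, was 6322.74 and 6231.55 bases in Tc1 and 6745.79 and 6607.51 bases in Tc9 cells. It was longer in both Tc9 libraries, so the ratio of the mean FPKM (fragments scaled by gene length and depth), 2.47, was slightly under the ratio from counts. The gene spans chr16:92601466-92826149 on the minus strand.

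*Etv5*, an ETS factor, was the member that fell. Tc1 replicates 1 and 2 held 282 and 270 *Etv5* counts, whereas Tc9 replicates 1 and 2 held 152 and 205. The means were 8.77 ± 0.153 CPM in Tc1 and 5.69 ± 1.2 CPM in Tc9 (SD, n = 2 each). Both Tc9 libraries were below both Tc1 libraries, with a wider gap between the Tc9 libraries than between the Tc1 libraries. The log2 fold change was -0.62 (SE 0.17, adjusted p = 0.0168 by edgeR), and 70.2% of the 1284 genes tested had groups that did not overlap. The call was lost without the filter on low counts (adjusted p = 0.0697), without Tc1 replicate 1 (0.194) and without Tc1 replicate 2 (0.125), while the log2 fold change stayed between -0.86 and -0.42 when any 1 library was left out. The gene lies on chr16:22381309-22439719 (minus strand).

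**Figure D2:**
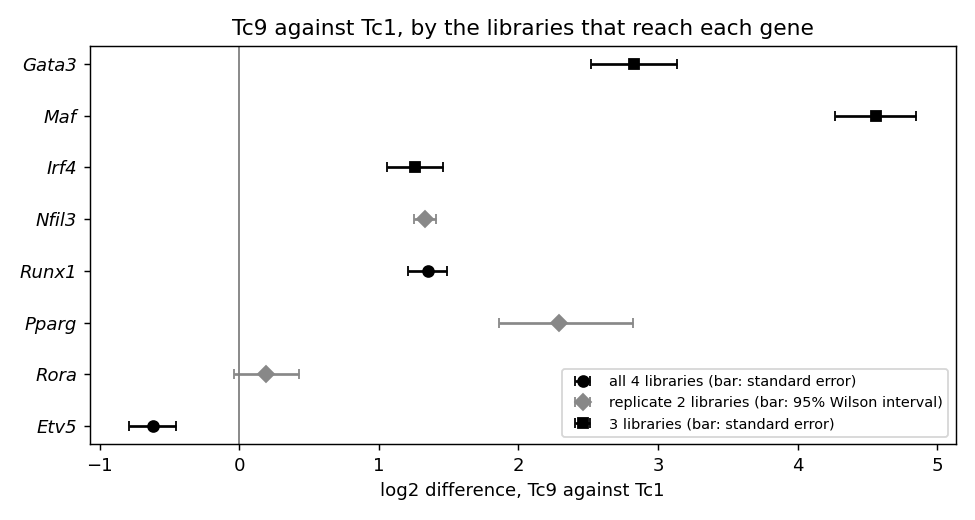
Log2 difference of Tc9 against Tc1 cells for each member with a value (horizontal axis), from the tests over 4 or 3 libraries with standard errors and from the replicate 2 libraries with 95% Wilson intervals. *Maf* (4.56) and *Gata3* (2.83) lie farthest to the right, *Rora* (0.19) has an interval that includes 0, and *Etv5* (-0.62) is the member left of 0.

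The other members were covered in the replicate 2 libraries only and are given as ratios of those 2 libraries. Over these, 6 of the 8 members with a value stood more than 2-fold higher in Tc9, against 10.3% of 6158 genes, and none more than 2-fold lower, against 4.86%. The ratio was above 0 in 7 of the 8, against 51.3% of genes, and the median log2 ratio of the 8 was 1.40, against 0.02 over all 6158 genes. Since the members were chosen with earlier results of these data known, these shares are a description. *Nfil3*, a bZIP repressor that IL-4 induces in lymphocytes, had 1733 counts in Tc1 and 4375 in Tc9 cells. This is 55.6 and 140 CPM, a log2 ratio of 1.33 (95% Wilson interval 1.25 to 1.41). Between the Tc9 replicates, 95% of genes with like counts stayed within 0.49 of each other on the log2 scale, so the *Nfil3* ratio was wider than that spread. The gene lies on chr13:52967209-52981073 (minus strand).

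*Pparg*, the nuclear receptor for fatty acid ligands, was counted 41 times in Tc1 replicate 2 and 209 times in Tc9 replicate 2. The levels were 1.32 and 6.67 CPM, both low, with the Tc9 library clearly the higher. The log2 ratio was 2.29 (95% Wilson interval 1.86 to 2.82), beyond the 0.69 that 95% of genes of like counts stay under between the Tc9 replicates. On the scale of log2(FPKM + 1) it was 1.51. *Pparg* lies on chr6:115360951-115490399 (plus strand).

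*Rora*, which encodes the nuclear receptor RORα, gave 270 counts in Tc1 replicate 2 and 310 in Tc9 replicate 2, or 8.66 and 9.89 CPM. The log2 ratio was 0.19, with a 95% Wilson interval from -0.04 to 0.43. The values lay closer than the 0.56 that 95% of genes of like counts stay under between Tc9 replicates, and a difference was not detectable between these libraries. *Rora* lies on chr9:68653786-69388246 (plus strand). *Spi1*, on chr2:91082390-91115756 (plus strand), had 2 counts in Tc1 replicate 2 and 1 count in Tc9 replicate 2. Both are under the limit of 3 counts, which is 0.0962 and 0.0957 CPM, so no ratio is given. This level covers the RNA of the sorted cells 14 days after transfer and says nothing of the cells in culture.

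**Figure D3:**
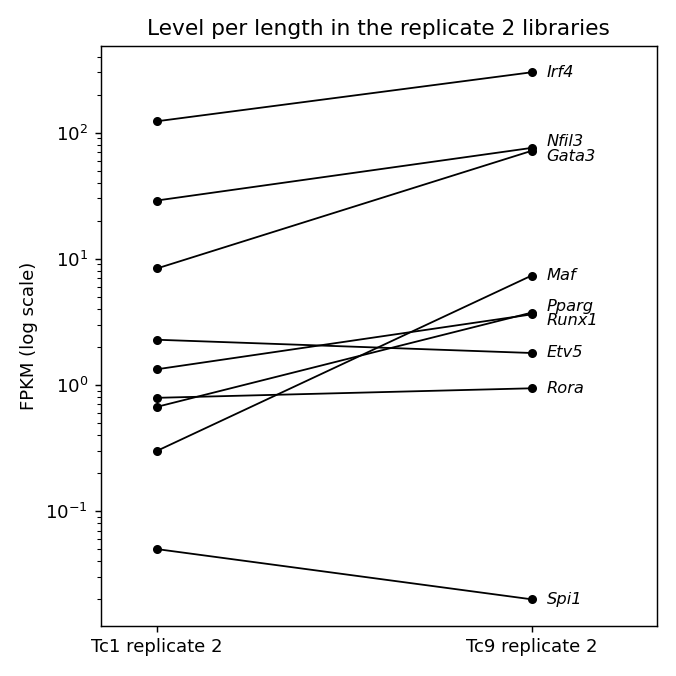
FPKM of the 9 members (vertical log axis) in Tc1 replicate 2 and Tc9 replicate 2, with 1 line per gene. *Maf* goes from 0.3 to 7.35 and passes *Rora*, *Pparg*, *Runx1* and *Etv5*, while *Irf4* is highest and *Spi1* lowest in both libraries.

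Per length, the members spanned a wide range. In Tc1 replicate 2 the FPKM order ran from *Irf4* (122.77) over *Nfil3* (28.92), *Gata3* (8.37), *Etv5* (2.28), *Runx1* (1.33), *Rora* (0.79), *Pparg* (0.67) and *Maf* (0.3) to *Spi1* (0.05). In Tc9 replicate 2 it ran from *Irf4* (300.09) over *Nfil3* (75.52), *Gata3* (71.56), *Maf* (7.35), *Pparg* (3.74), *Runx1* (3.62), *Etv5* (1.79) and *Rora* (0.94) to *Spi1* (0.02). *Maf* moved up from the 8th to the 4th place, and *Etv5* moved down from the 4th to the 7th. *Rora* and *Pparg* in the Tc1 library, and *Nfil3* and *Gata3* as well as *Pparg* and *Runx1* in the Tc9 library, were closer than the spread between replicates at such counts, and their order is not settled. *Gata3* exceeded 57.7% of the genes listed for Tc1 replicate 2 and 93% of those listed for Tc9 replicate 2, although these tables list different genes. In Tc9 replicate 1 the order of the 5 covered members was *Irf4* (310.94), *Gata3* (52.19), *Maf* (7.93), *Runx1* (3.07) and *Etv5* (1.3), as in the other Tc9 library.

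The other genes of each factor family were read beside the members. In the RUNX family, *Runx2*, best known as the factor of bone formation, fell from 2773 and 2512 counts (Tc1) to 882 and 981 (Tc9, log2 fold change -1.50, SE 0.12, adjusted p = 5.14e-06 by edgeR). *Runx1* and *Runx2* thus passed the test in opposite directions. For *Runx3*, the RUNX factor of CD8+ cells, the log2 fold change was 0.07 with an adjusted p of 0.648, and for their common partner *Cbfb* it was 0.04. Per length, *Runx3* was the most abundant of the 3 RUNX factors in the replicate 2 libraries, with an FPKM of 52.58 in Tc1 and 60.51 in Tc9, where *Runx2* had 13.78 and 5.46.

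Among the IRF factors, none of the 4 relatives tested passed the threshold, which 10.1% of all genes passed over 3 libraries. *Irf8*, which like IRF4 pairs with PU.1 and BATF, was counted 14755 times in Tc1 replicate 2 and 7556 and 8654 times in the Tc9 libraries. It was lower in both Tc9 libraries (log2 fold change -0.87, SE 0.21), with an adjusted p of 0.0589. Among the GATA family, *Gata1* had 42, 92 and 96 counts (log2 fold change 1.15, adjusted p = 0.0723), and *Gata2*, *Gata4*, *Gata5* and *Gata6* had at most 3 counts in any library. *Zfpm1*, which encodes the GATA cofactor FOG1, stood at a log2 ratio of 0.58 (0.51 to 0.66) between the replicate 2 libraries.

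Of 8 ETS relatives tested, 1 was called, close to the 10.1% of all genes. This was *Erg*, with 1 count in Tc1 replicate 2 and 40 and 27 counts in the Tc9 libraries (adjusted p = 0.019 by edgeR). It entered the test only through the Tc9 libraries, since its Tc1 count is under the limit of 3 counts. From so few counts its log2 ratio in the replicate 2 libraries was 3.27, with an interval of 2.21 to 7.29. *Etv4*, the close relative of *Etv5*, had 126 and 81 counts in those libraries and a log2 ratio of -0.63 (-1.05 to -0.24), of the same sign as that of *Etv5*. Its size was within the 0.69 that 95% of genes with counts like those of *Pparg* stayed under between the Tc9 replicates. None of the 3 MAF relatives tested was called. *Dbp*, a bZIP factor that binds the same sites as NFIL3, rose from 56.93 counts in the Tc1 library to 176.16 and 168.34 with Tc9 (a log2 fold change of 1.58, SE 0.27, adjusted p = 0.0212 by edgeR). *Rxra*, the partner with which PPARγ binds DNA, was counted 738 times in Tc1 replicate 2 and 2880 times in Tc9 replicate 2, which is a ratio of 1.95 on the log2 scale (1.84 to 2.07). *Ppard* had 395 and 431 counts, and *Ppara* and *Rxrg* had none.

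**Figure D4:**
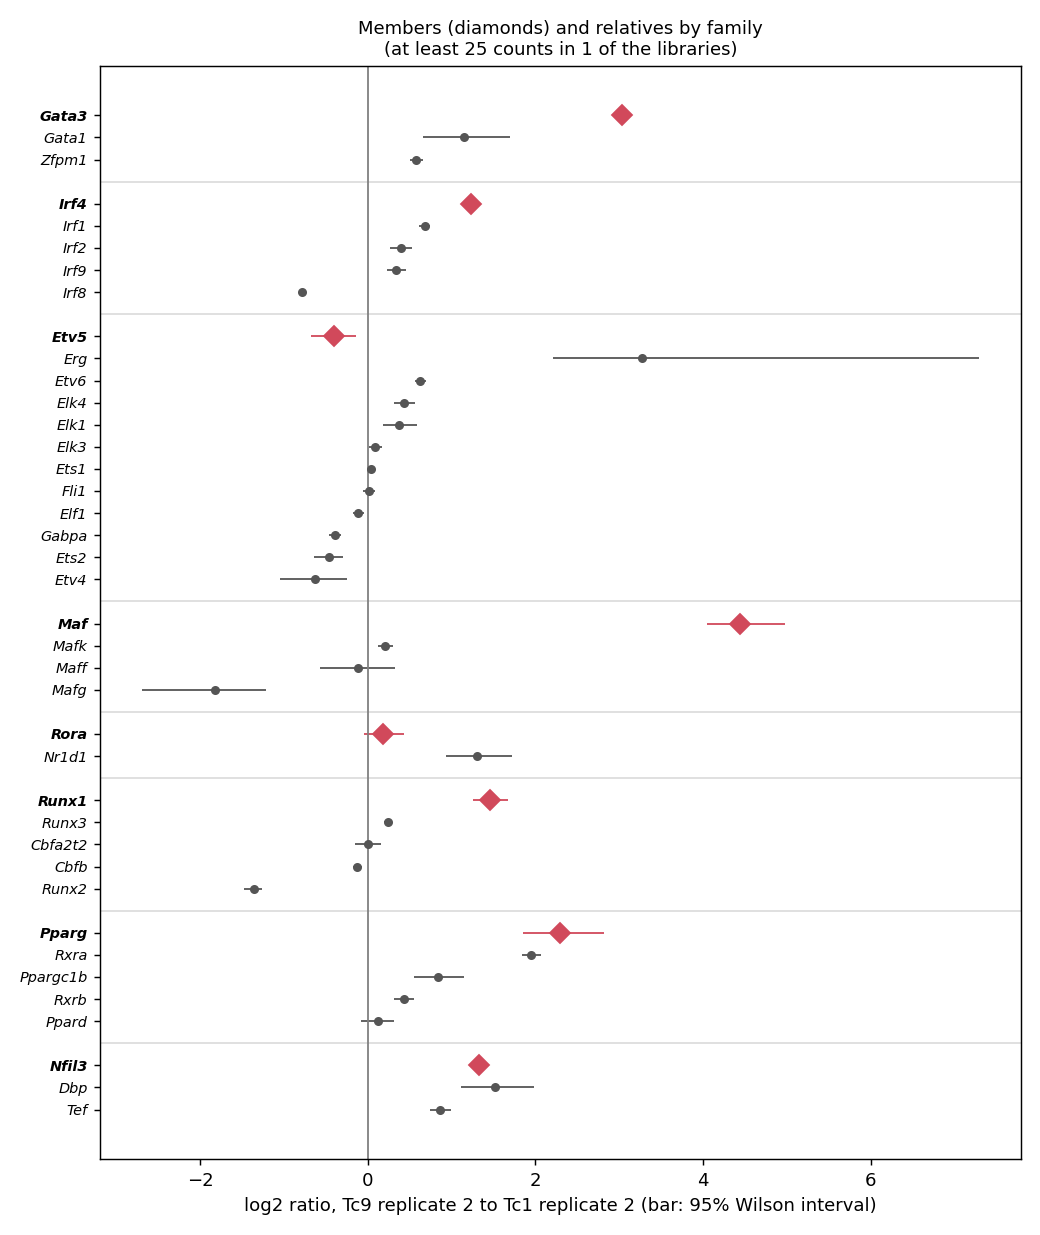
Log2 ratio of Tc9 replicate 2 to Tc1 replicate 2 (horizontal axis) for the members (diamonds) and the relatives of each (circles) with at least 25 counts in 1 of these libraries, with 95% Wilson intervals. *Runx1* (1.46) and *Runx2* (-1.36) lie on opposite sides of 0, as do *Irf4* (1.23) and *Irf8* (-0.78), while *Pparg* (2.29) and *Rxra* (1.95) lie on the same side.

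Upstream of these factors, 1 of the 9 genes of IL-4 and TGF-β signaling tested over 3 libraries was higher in Tc9 and none lower, near the 7.00% and 3.06% of all genes. The list median log2 fold change was 0.30 against 0.04 over all genes. The gene called was *Il4ra*, the receptor chain for IL-4 and IL-13, with 11551 counts in the Tc1 library against 33931 and 40320 with Tc9 (a log2 fold change of 1.68, SE 0.23, adjusted p = 0.0121 by edgeR). *Smad3* had a log2 fold change of 0.06 and *Smad4* of 0.22, both short of the threshold. In the replicate 2 libraries, *Tnfrsf4*, which encodes the costimulatory receptor OX40, stood at a log2 ratio of 2.15 and the TGF-β receptor gene *Tgfbr1* at 1.24. *Tgfbr2* stood at -0.39 and *Notch2* at -0.18. *Stat6* stood at 0.23, from 4588 and 5401 counts. The ratios of *Tgfbr2*, *Notch2* and *Stat6* were within the spread between the Tc9 replicates. There, 95% of genes with counts like those of *Nfil3* differed by less than 0.49, so no difference was detectable for these genes.

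Among 19 factors that work with the members, 2 were tested over 4 libraries and 3 over 3 libraries, where 35.4% and 10.1% of all genes were called, and edgeR called none of them. The smallest adjusted p-values were those of *Id3* (log2 fold change 1.07, adjusted p = 0.0522) and *Bcl6* (0.76, adjusted p = 0.0529). Of the untested ones, *Ikzf3* had a log2 ratio of 0.69 and *Nfatc1* of 0.38 between the replicate 2 libraries, against -0.82 for *Bhlhe40* and -0.63 for *Rel*. The *Nfatc1* ratio was under the 0.49 within which 95% of genes with counts like those of *Nfil3* stayed between the Tc9 replicates. *Batf* had 1938 counts in Tc9 replicate 2, the 1 library that covered it.

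Of 9 target genes of the type 2 program tested over 3 libraries, 8 were higher in Tc9 and 1 lower, against 7.00% and 3.06% of all genes. Of the 8, *Il9*, *Il4* and *Il10* had under 10 counts in the Tc1 library and entered the test only through the Tc9 libraries, where they are high, and without them 5 of 6 were higher. *Il9* had 3 counts in the Tc1 library and 2601 and 2667 in the Tc9 libraries, and its log2 ratio in the replicate 2 libraries was 9.05 (8.23 to 11.34). *Il10*, a MAF target, had 8 counts against 1094 and 891, and *Il13*, a GATA3 target, had 234 counts against 1107 and 1284. *Il4* and *Il5* rose from 4 and 18 counts to 36 and 272 in Tc9 replicate 1 and to 37 and 234 in replicate 2. The chemokine receptors *Ccr8* (log2 fold change 4.69) and *Ccr4* (2.18) and *Epas1*, which encodes HIF-2α (4.96), were higher as well, with adjusted p-values of 0.00176, 0.00572 and 0.00254 by edgeR. *Il1rl1*, the IL-33 receptor that GATA3 is known to sustain in Th2 cells, went the other way, from 181 counts to 38 and 26 (log2 fold change -2.50, SE 0.31, adjusted p = 0.00879).

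Of 5 type 1 genes tested over 3 libraries, 1 was lower in Tc9 and none higher, against 3.06% and 7.00% of all genes. *Ifng*, the cytokine of Tc1 cells, was counted 15303 times in the Tc1 library, against 5097 and 4700 times with Tc9 (a log2 fold change of -1.65, SE 0.20, adjusted p = 0.00879 by edgeR). For *Eomes* the log2 fold change was -0.59, at an adjusted p of 0.149. *Tbx21*, the gene of T-bet, had 4319 counts in Tc9 replicate 2 and was not covered in the other libraries.

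Of the PPARγ targets, 2 were tested over 4 libraries, where 35.4% of all genes were called, and both were lower. None of the 3 tested over 3 libraries was called. *Cd36*, a fatty acid transporter, was counted 111 and 118 times with Tc1 against 17 and 6 times with Tc9 (log2 fold change -3.30, SE 0.35, adjusted p = 2.78e-05 by edgeR). *Plin2*, a coat protein of lipid droplets, had 1238 and 1248 counts against 598 and 555 (log2 fold change -1.10, SE 0.12, adjusted p = 3.61e-05). *Cpt1a*, the entry enzyme of mitochondrial fatty acid oxidation, had 1364 counts in the Tc1 library and 1742 and 1892 with Tc9, a log2 fold change of 0.41 that was not called (adjusted p = 0.287). *Fabp5* and *Acsl1*, which bind and activate fatty acids, had log2 fold changes of -0.92 (adjusted p = 0.0723) and -0.40 (adjusted p = 0.274). Of the 5 tested, *Cpt1a* was thus the one above 0. *Fabp4* and *Adipoq*, the adipocyte targets, had 0 counts in all 4 libraries. Of the clock genes, *Dbp* was higher among 4 tested over 3 libraries (where 7.00% of all genes were higher), and *Arntl*, the 1 tested over 4 libraries (where 18.4% were higher), was higher with 202 and 197 counts (Tc1) against 284 and 253 (Tc9, log2 fold change 0.43, SE 0.15, adjusted p = 0.0468 by edgeR). *Per3*, and *Nr1d1*, whose product binds the same sites as RORα, stood at log2 ratios of 2.02 and 1.30 in the replicate 2 libraries.

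**Figure D5:**
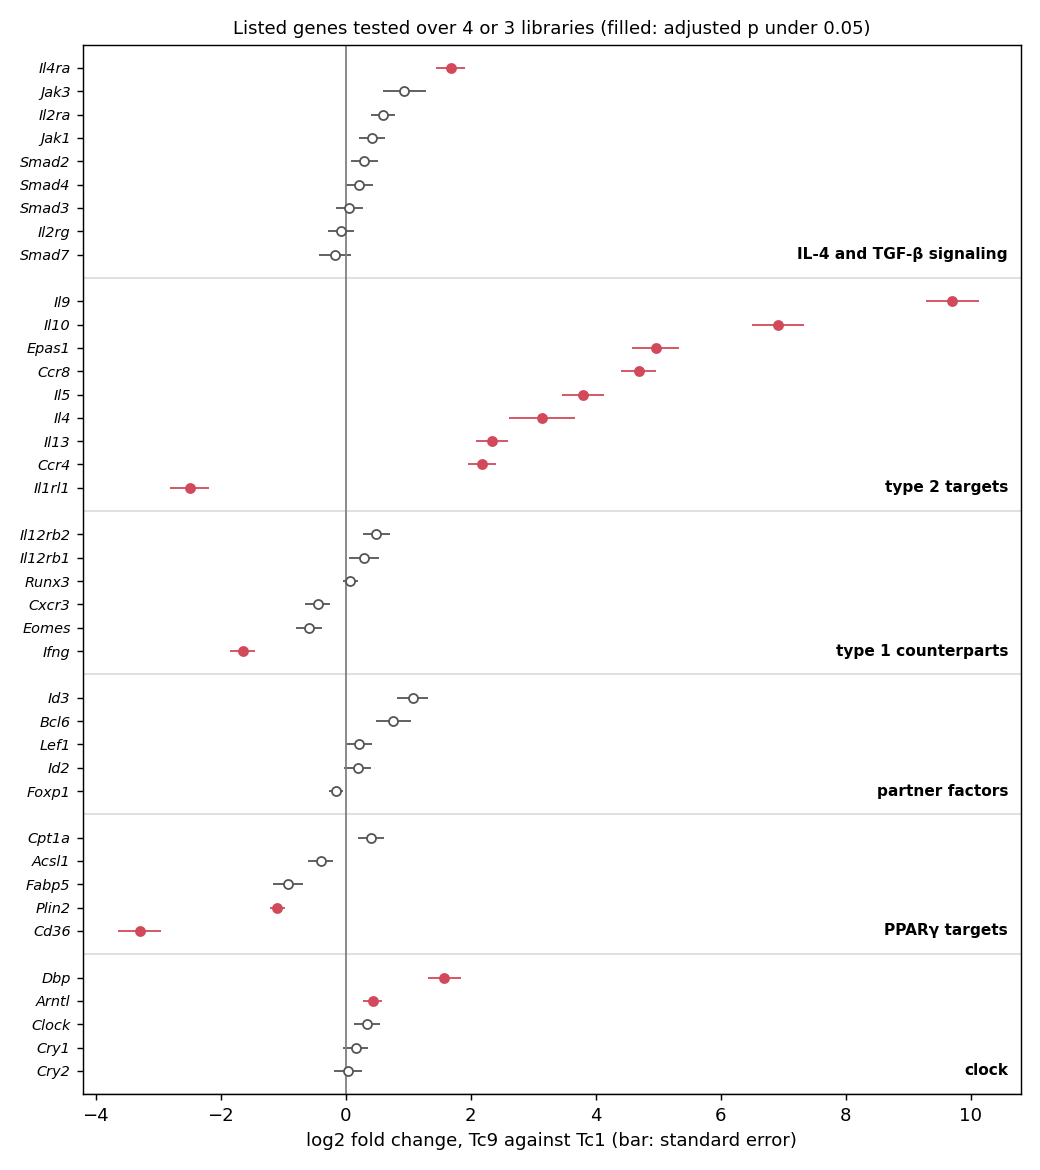
Log2 fold change of Tc9 against Tc1 cells (horizontal axis, standard errors as bars) for the listed genes of each group that were tested over 4 or 3 libraries, with filled circles for an adjusted p under 0.05. Of the 9 type 2 targets, 8 lie right of 0 and *Il1rl1* (-2.50) left of it, and of the 9 genes of IL-4 and TGF-β signaling *Il4ra* (1.68) is the filled one.

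The cells carried T cell transcripts. *Cd8a* had between 19330 and 21622 counts in the 4 libraries, and 7 of the 8 T cell markers had more than 3 counts in each replicate 2 library, with *Trac* not listed in any table. Of the 5 T cell markers tested over 4 libraries, *Cd3e* and *Cd3g* were higher in Tc9 (log2 fold changes of 0.73 and 0.49, adjusted p of 0.00671 and 0.00857 by edgeR). Of all genes tested there, 18.4% were higher. The remaining 3 were not called, among them *Cd8a* at -0.09, and *Thy1* stood at a log2 ratio of -0.30 in the replicate 2 libraries. Some markers of other cells differed between the groups. The 15 myeloid markers summed to 11.7 CPM in Tc1 replicate 2 and 15.1 CPM in Tc9 replicate 2, with 6 and 7 of them at 0, among these *Lyz2*, *C1qc*, *Csf3r*, *S100a8* and *S100a9* in both. Most of that sum was *Cd68*, with 226 and 221 counts for Tc1 against 358 and 439 for Tc9 (adjusted p = 0.00174 by edgeR), whereas *Fcer1g* was lower with Tc9 (114 counts against 24 and 13). The 5 B cell markers summed to 5.45 and 15.5 CPM, of which *Cd79b* gave 155 and 473 counts (higher over 3 libraries, adjusted p = 0.0251 by edgeR), and *Pax5* was at 0. The 7 melanoma markers had 81.97 counts in Tc1 replicate 2, where 6 of the 7 were covered, and 134.42 in Tc9 replicate 2, with *Tyrp1*, *Dct* and *Sox10* at 0 in both.

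Mast cells and innate lymphoid cells also express *Gata3* or *Gata2*. Of their 6 markers, *Kit* was higher in Tc9, with 142, 389 and 366 counts (log2 fold change 1.40, adjusted p = 0.0211 by edgeR), and *Il1rl1*, with the values given among the type 2 targets, was lower. These were the 2 markers tested, while *Fcer1a*, *Cpa3* and *Mcpt4* had at most 3 counts. *Foxp3*, the factor of regulatory T cells, had 34.61 counts in Tc1 replicate 2 and 1591.62 in Tc9 replicate 2, or 5.44 as a log2 ratio. Per length its FPKM of 13.65 in that Tc9 library was above those of *Maf*, *Pparg*, *Runx1*, *Etv5* and *Rora*. *Cd4* had 50 and 45 counts (Tc1) and 56 and 58 (Tc9). The part of these genes in the differences of *Gata3*, *Irf4*, *Maf* and the other members was not tested.

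Genes whose levels followed those of *Runx1* most closely over the 4 libraries, by the distance between centered log2 CPM profiles among 1283 genes, were *Avpr2* (0.097), *Glb1* (0.102) and *Arsa* (0.137). The lysosomal enzyme genes *Glb1* and *Arsa* had 1365 and 1368, and 151 and 132 counts in Tc1, and 3106 and 3414, and 347 and 421 counts in Tc9. *Avpr2* had between 12 and 37 counts. For *Etv5*, *Akna* (0.056) and *Chchd10* (0.104) were among the closest genes. *Akna*, an AT-hook factor, had 14652 and 13891 counts (Tc1) against 8271 and 10994 (Tc9), lower in both Tc9 libraries and with the same order among them as *Etv5*. With 4 libraries, this likeness is a description.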

How the data were processed

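RNA-Seq was performed by the authors on sorted tumor-infiltrating Tc1 and Tc9 cells, and RNA was pooled into 2 samples per group. Per gene and library, the authors deposited an expected count (an estimate that need not be whole, not normalized), an FPKM value (corrected for gene length and library depth) and a length in bases. The genome build is mm10 per the submitters' processing notes, and the aligner and counting program are not given in the sources used here. Coordinates are from GENCODE M21 and promoters from RefSeq, both on GRCm38. An unfinished last row was left out of 3 tables.

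Since 3 tables stop early, depth was derived from counts and FPKM of genes with at least 500 counts. TMM factors of the range covered by all 4 tables (1681 genes) were 0.998 and 0.977 for the Tc1 libraries and 1.01 and 1.02 for the Tc9 libraries, and scaled all values; 3 libraries shared 3465 genes, and the replicate 2 libraries 7963 genes. Rounded counts were tested with edgeR 4.0.16 (R 4.3.3), two-sided, after filterByExpr (minimum count 10), with Benjamini-Hochberg adjustment over all genes tested at a threshold of 0.05. An exact permutation test of 2 against 2 libraries cannot go below p = 0.333. Ratios of the replicate 2 libraries used a prior count of 2 and 95% Wilson intervals. PCR copies of a molecule cannot be recognized in these reads, so intervals and floors (3 counts) cover counting error only.

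Chi-square per gene was 5.04 between the Tc1 and 40.4 between the Tc9 libraries, beyond sampling noise. This does not tell separate pools from repeated libraries of 1 pool, and the libraries were counted as replicates because the labels number them so. Counts were also simulated, with the same fixed spread for all libraries and 200 changed genes above a minimum mean count. On these, the test over 4 libraries (1278 genes) recovered 98% of 2-fold changes with 6 false calls among 204. The test over 3 libraries (2598 genes) recovered 93%, with 14 false calls among 207. Among genes with a mean of at least 10 counts, the median absolute log2 difference was 0.23 between the Tc9 and 0.07 between the Tc1 libraries. The shares recovered therefore hold for the simulated spread and not for the data.

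All 9 members are named, and of each list the genes past the threshold and, without a test, up to 2 with the largest positive and 2 with the largest negative ratio among genes with at least 50 counts. Likeness names genes among the 3 closest. Results of some single genes are not reported here. *Runx3*, *Cbfb*, *Irf8*, *Gata1*, *Smad3*, *Smad4*, *Id3*, *Bcl6*, *Eomes*, *Batf*, *Tbx21*, *Stat6*, *Ppard*, *Cpt1a*, *Fabp5*, *Acsl1*, *Fabp4*, *Adipoq* and the genes listed at 0 or few counts were named after their values were seen. The members and lists were chosen with earlier results of these data known. Alternatives were DESeq2 1.42.0, other scalings and filters, limma 3.58.1 on log2(FPKM + 1) and log2(FPKM + 0.1), a replicate block and leaving out libraries.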

Additional observations from a re-analysis of the deposited data

How the results depend on the processing

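*Runx1* kept its direction and call under every alternative run, and so, where a test was possible, did *Gata3*, *Irf4* and *Maf* except without the filter on low counts. There, over 3 libraries, edgeR called 0 genes higher and 0 lower (597 at an unadjusted p under 0.05, DESeq2 with the filter 217 higher and 121 lower), and their log2 fold changes of 2.83, 1.26 and 4.56 had adjusted p = 0.202. Leaving out either Tc9 library moved these to 2.59 to 3.04, 1.23 to 1.29 and 4.52 to 4.61, with no test. Over 3 libraries, depth alone gave 371 genes higher and 163 lower, TMM factors of that range 335 and 211, a minimum count of 50 gave 293 and 172, and the values reported are 183 and 80. Over 4 libraries (236 and 219), no filter gave 156 and 139, and leaving out a library gave 76 to 416 higher and 47 to 410 lower, least without Tc1 replicate 1 (76 and 47) or 2 (88 and 56) and most without Tc9 replicate 1 (416 and 410) or 2 (362 and 370). *Etv5* stayed at -0.62 without the filter (adjusted p = 0.0697), and between -0.86 and -0.42 when any library was left out, losing the call without Tc1 replicate 1 (-0.61) or 2 (-0.64). *Pparg* stood at 1.51 on log2(FPKM + 1). The cause of these shifts was not tested. With the replicate number as a block, *Runx1* had a log2 fold change of 1.35 and *Etv5* of -0.63, and 445 genes were called (232 higher, 213 lower) against 455, of which 417 were shared. Same-numbered libraries share a number only (correlation of their deviations -0.0666). Over 3 libraries the groups share 1 number, so no block could be fitted. With 1 Tc1 library, the calls of *Gata3*, *Irf4* and *Maf* rest on the spread between Tc9 libraries.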
